A study of Homo sapiens with 148 samples.

Results

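The transition from primitive gut tube-like cells (PGT) to pancreatic progenitors (PP) was described across genes, using the mean abundance of each gene's RNA at both stages. The unit, TPM, divides the reads of a transcript by its length and scales every library to the same total. Entries that share a gene name were summed, and a gene was a member when its level reached 10 TPM at either stage, which held for 10140 of the 49085 gene names. Of these, 8442 reached 10 TPM at both stages, 952 only in PGT and 746 only in PP. The cutoff divided genes of nearly equal level. ALKBH1 was just inside it, with 10.0 TPM in PGT and 8.62 TPM in PP, and VILL was just outside, with 9.99 and 5.52 TPM.

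RNA-seq is 1 of several assays in the series, with 12 of its 148 samples. All cells descend from H9, an established human embryonic stem cell (hESC) line of wild-type genotype differentiated as suspended spheroids, so that each sample pools whatever cells the spheroids held. PGT (2 RNA-seq samples) was taken at day 7, after Activin A with CHIR99021 and Y27632 and then KGF, a ligand of the FGFR2 receptor. PP (also 2 samples) was taken at day 14, after further KGF together with Sant1, retinoic acid, LDN193189, PdBU and Y27632. LDN193189 blocks BMP receptors and was given on the first of these days only. PdBU, which activates protein kinase C, was given only early in this period, when the retinoic acid dose was also higher than later. Sant1 blocks the Hedgehog transducer SMO and Y27632 inhibits ROCK kinases. Definitive endoderm (DE, day 4) and the organoids with β cells at the end of the protocol (SC-β, day 35) are used only to place a level in the series.

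The table holds a single mean TPM per stage, without replicate values or read counts. Every value below is therefore the authors' mean, no spread between replicates and no test can be given, and the depth behind each value is unknown. A gene was counted as higher or lower when (TPM + 1) differed at least 2-fold between PP and PGT, and log2 ratios are on that scale, which understates the change of weakly expressed genes. A gene far under 10 TPM at one stage becomes a member only by its level at the other, and then passes 2-fold by construction. Counts among members in part reflect this. A bulk mean cannot tell apart fewer cells of a type from less RNA per cell. Genes listed at 0 in PGT are given by their level alone, since a 0 in such a table can also be a failed estimate.

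During pancreas development, cells of the gut tube that express PDX1 form a bud that gives rise to acinar, ductal and endocrine cells. Retinoic acid from neighbouring mesoderm favours this fate, whereas Hedgehog signalling is kept low in the prospective pancreas and BMP signalling favours liver from the adjoining endoderm. NKX6-1, SOX9, PTF1A and ONECUT factors act in the progenitors, and NEUROG3 starts the endocrine programme that leads to the granule protein CHGA and the islet hormones.

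At 2-fold, 544 of the 10140 genes (5.36%) were higher in PP and 747 (7.37%) were lower, and 8849 were neither. Without the limit of 10 TPM, 1346 of the 49085 names (2.74%) were higher and 1594 (3.25%) were lower. The median log2 ratio of the 10140 genes was -0.11, with quartiles of -0.41 and 0.19, so that a typical gene was slightly lower in PP. A few structural RNAs such as RN7SK took 36.9% of the TPM total in PGT and 42.2% in PP. After these RNAs and the mitochondrially encoded genes were removed and the totals recomputed, all other TPM values rose and 12254 genes reached 10 TPM. Of these, 936 were higher and 800 were lower, and the higher genes made up 53.9% of those counted instead of 42.1%. The balance between higher and lower genes thus changed with this scaling together with the genes it brought past 10 TPM. Log2 ratios of the 10140 original members shifted by a median of 0.13. With median-ratio rescaling, 10152 genes reached 10 TPM, of which 642 were higher and 605 were lower.

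**Figure D1:**
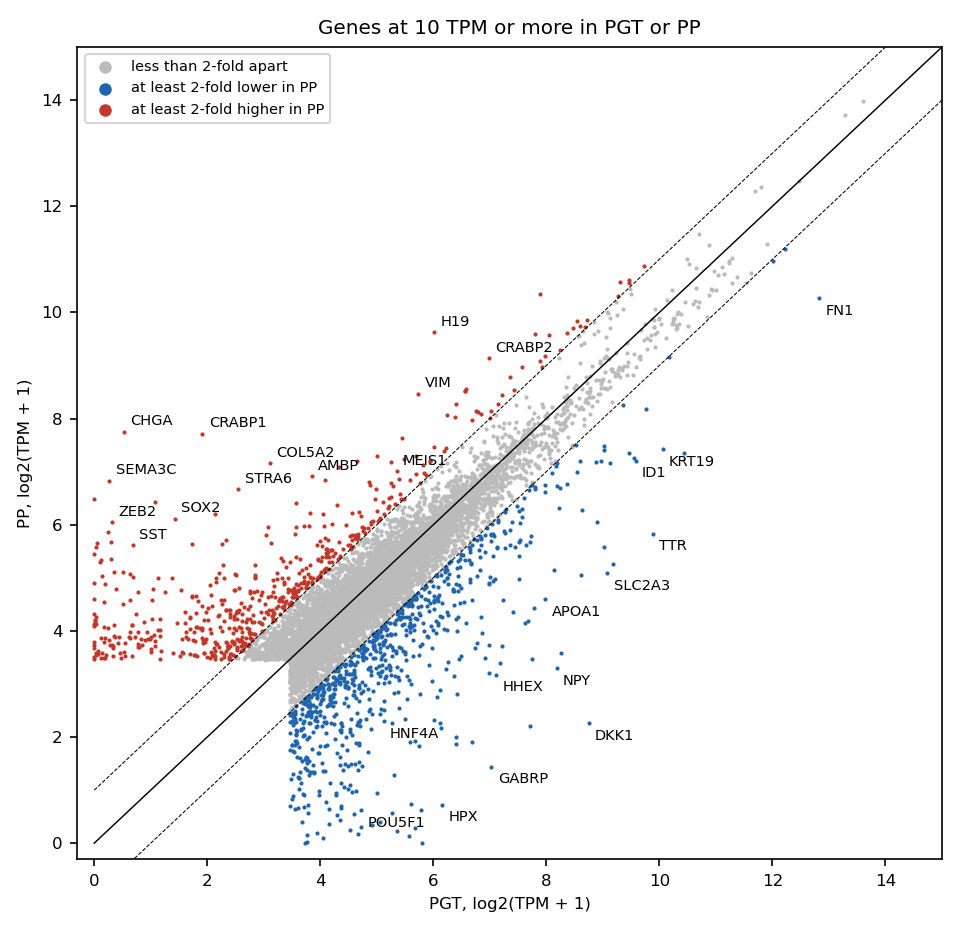
Mean RNA level of the 10140 member genes in PGT (horizontal axis) and PP (vertical axis), both as log2(TPM + 1), each point a gene; the solid line marks equal levels and the dashed lines 2-fold. The 544 red genes lie above the upper dashed line, with CHGA, SEMA3C and CRABP1 among the farthest from it, and the 747 blue genes lie below the lower one, with DKK1 and TTR among the farthest.

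The 3 marker genes chosen for this transition were all higher in PP. They were named with earlier results of these data known, so their direction is a description and no independent support. CHGA, which encodes chromogranin A of neuroendocrine granules (chromosome 14, 92923150 to 92935285 on GRCh38, forward strand), had the largest log2 ratio of any member, with 0.438 TPM in PGT and 215 TPM in PP (log2 ratio 7.23). MEIS1, a TALE homeodomain partner of HOX and PBX proteins, was at 39.9 TPM in PGT and 128 TPM in PP (1.65). PDX1, the factor that defines the pancreatic bud, was at 0.243 TPM in PGT and 3.17 TPM in PP (1.75), and so it was more than 2-fold higher but stayed under the 10 TPM that a member needs.

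All 24 pancreatic progenitor transcription factors on the list were measured and 12 of them reached 10 TPM, of which 2 were higher, 8 were lower and 2 were neither. SOX9, which maintains the progenitor pool, went from 5.90 to 23.7 TPM (1.84), and ONECUT2 from 0.805 to 12.3 TPM (2.88). HNF4A, a nuclear receptor of liver and gut, went from 33.7 to 3.90 TPM (-2.82). The pioneer factors FOXA1, FOXA2 and FOXA3 were lower by 1.70, 1.81 and 2.47 on the log2 scale, and FOXA1 kept the highest level of these in PP, at 25.8 TPM. GATA4 and GATA6, zinc finger factors of early endoderm, had log2 ratios of -1.45 and -1.30 and were left at 10.2 and 11.6 TPM.

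Of the 12 factors under 10 TPM, 7 were at least 2-fold higher in PP, 2 were lower and 3 were neither. NKX6-1, which with PDX1 marks progenitors able to make β cells, was at 0.0153 TPM in PGT and 2.20 TPM in PP, and its relative NKX6-2 at 0.0766 and 5.20 TPM. MNX1, required for the dorsal bud, went from 0.544 to 5.85 TPM, and PTF1A, the acinar and early progenitor factor, was listed at 0 in PGT and reached 1.02 TPM. These levels were below those of FOXA1 and KLF5, which stood at 25.8 and 24.5 TPM in PP.

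Of 6 granule and prohormone processing genes at 10 TPM or more, 5 were higher and 0 were lower. For those near 0 in PGT, such as SCG2 and SCGN, the filter fixed this call. Over all 12 listed genes, 8 were higher and 1 was lower. SCG2, a granin, went from 0.189 to 15.7 TPM (3.81), CPE, the carboxypeptidase that trims prohormones, from 24 to 147 TPM (2.56) and PAM, which amidates peptides, from 18.7 to 82.3 TPM (2.08). SCGN, a calcium sensor of endocrine cells, was listed at 0 in PGT and stood at 10.4 TPM in PP. SCG3 differed in direction, at 7.39 and 2.15 TPM.

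The 3 peptide hormone genes above 10 TPM reached that level only in PP, so the filter fixed their call as higher. Over all 13 genes of the islet and gut hormone list, 7 were higher, 0 were lower and 6 were neither. SST, the δ-cell hormone somatostatin, went from 0.599 to 48.1 TPM (4.94), and GHRL, which encodes ghrelin, from 2.25 to 18.1 TPM (2.56). GCG, the glucagon gene of α cells, was listed at 0 in PGT and reached 16.5 TPM. Below 10 TPM, GAST and INS, both listed at 0 in PGT, stood at 9.57 and 6.93 TPM in PP, so that INS was the lowest of the islet hormones SST, GCG and INS at this stage. PPY, the pancreatic polypeptide gene, was at 0.105 TPM.

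Of 17 transcription factors of the endocrine lineage, 3 reached 10 TPM, ETV1 being higher (8.65 and 22.6 TPM), RFX3 neither (17.5 and 18.1 TPM) and ISL1 lower (58.3 and 14 TPM, -1.99). Below that level, 6 of 14 were higher and 0 were lower. NEUROD1 was listed at 0 in PGT and reached 4.16 TPM, ST18 went from 0.0165 to 4.93 TPM and INSM1, a zinc finger factor downstream of NEUROG3, from 0.124 to 2.31 TPM. NEUROG3 itself, the inducer of the lineage, was at 0.556 TPM in PP and NKX2-2 at 0.493 TPM.

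CHGA and SST, the granin and the hormone with the largest ratios, share a short element directly upstream of their start sites, for which their promoters are shown. The 100 bases before each start are given 5′ to 3′ on the gene's strand from RefSeq (GRCh38.p14), CHGA at chr14:92923050-92923149 (forward strand) and SST at chr3:187670395-187670494 (reverse strand), with the cyclic AMP response element letters TGACGTCA in capitals.
CHGA: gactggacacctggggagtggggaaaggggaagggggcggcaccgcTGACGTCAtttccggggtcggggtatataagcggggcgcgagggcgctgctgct
SST: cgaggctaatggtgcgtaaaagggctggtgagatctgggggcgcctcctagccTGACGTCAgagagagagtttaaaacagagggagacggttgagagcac
The element begins 54 bases before the CHGA start and 47 bases before the SST start. On both strands of the 300 bases around each start, it was found in 2.55% of all 15309 promoters matched to a name in the table, in 3.61% of the 360 promoters of higher members and in 1.38% of the 506 promoters of lower members. Its share among higher members was close to that among all 7405 members with a promoter, 3.62%.

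**Figure D2:**
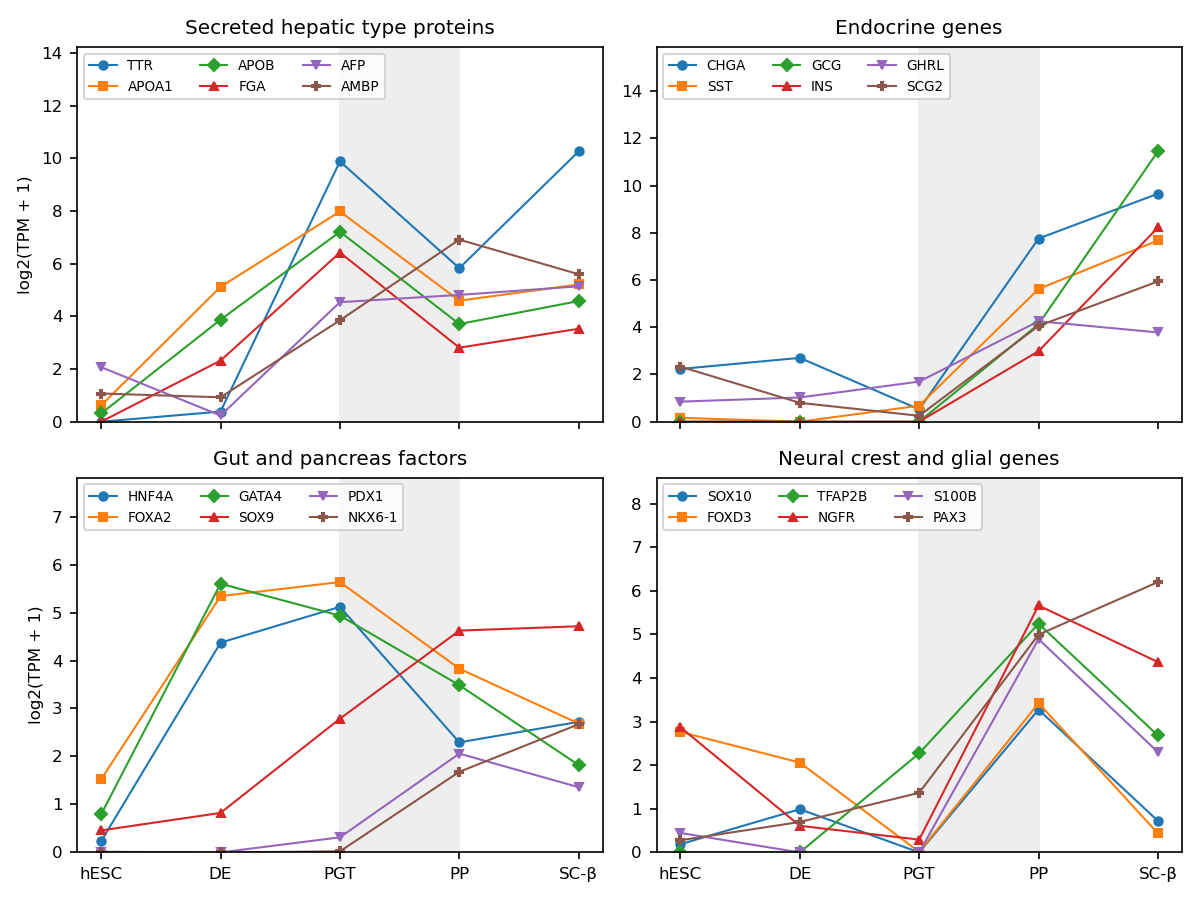
Mean RNA level, as log2(TPM + 1), of selected genes in hESC, DE, PGT, PP and SC-β (horizontal axis, in order of differentiation), with the PGT to PP interval shaded; each line is a gene and each point the authors' mean of a stage. The liver-type genes TTR, APOA1, APOB and FGA are lower at the end of the shaded interval than at its start, the endocrine genes are higher, and SOX10, FOXD3 and S100B had their highest point in PP.

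Genes for secreted proteins of liver and yolk sac type formed the list with the lowest median, -2.06 over all 29 measured genes against -0.11 for all members. Of 20 at 10 TPM or more, 16 were lower and 2 were higher. TTR, the thyroid hormone carrier transthyretin, went from 943 to 55.8 TPM (-4.05). Apolipoproteins of lipid transport followed the same course, with APOA1 at 252 and 23.2 TPM, APOA2 at 212 and 10.1 TPM, APOB at 147 and 12.1 TPM and APOE at 750.4 and 152 TPM. The fibrinogen chain genes FGA, FGB and FGG, whose products form clots, had log2 ratios of -3.61, -1.52 and -1.47, so the genes for the 3 chains of a single protein differed in their ratio. The haem carrier HPX was the lowest relative to PGT, at 70.4 and 0.655 TPM (-5.43).

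Not every gene of this list was lower. AMBP, the precursor of α1-microglobulin and bikunin, was higher in PP (13.4 and 119 TPM, 3.06), as was the membrane protein gene TM4SF4 (0.133 and 22.3 TPM, 4.36). AFP, the fetal serum protein, was at 22.2 and 27.1 TPM, and SERPINA1, which encodes α1-antitrypsin, at 49.7 and 46.1 TPM, each less than 2-fold apart. ALB, the adult liver's main product, did not exceed 2.99 TPM at either stage.

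In the BMP pathway, 10 of 19 members were lower, 1 was higher and 8 were neither, with a median of -1.40. Over all 25 listed genes, 12 were lower and 5 were higher, with a median of -0.77. The higher member was MSX1, a homeobox gene that is itself a BMP target (11.2 and 28.2 TPM, 1.25), and with median-ratio rescaling 2 members were higher. Its relative MSX2 was at 41.9 and 43.2 TPM. The ID genes, which encode inhibitors of helix-loop-helix factors and respond directly to BMP, were abundant in PGT. ID1 went from 764 to 147 TPM (-2.37), ID2 from 302 to 102 TPM (-1.56) and ID3 from 386 to 145 TPM (-1.40). ID4 was at 123 and 71.6 TPM, short of 2-fold. The inhibitory SMAD genes and the decoy receptor gene BAMBI, which feed back on the pathway, were lower still, with SMAD6 at 73.6 and 8.72 TPM (-2.94), SMAD7 at 60.0 and 9.31 TPM (-2.56) and BAMBI at 390.5 and 32.1 TPM (-3.57).

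The ligand and receptor genes of the pathway differed less. BMP4 was at 11.4 and 7.84 TPM, BMP7 at 22 and 21.8 TPM and the receptor gene BMPR1A at 34.1 and 22.6 TPM, all under 2-fold, whereas BMP2 was lower (16.7 and 5.18 TPM, -1.52). Of the transducers, SMAD1 and SMAD5 had log2 ratios of -0.52 and 0.37, and SMAD9 was lower by 2.76 on that scale. Secreted antagonists were found on both sides. CHRD, FST and BMPER were lower (-2.16, -1.83 and -2.26), and NOG and GREM1, both under 10 TPM, were higher, GREM1 going from 0.0717 to 8.20 TPM.

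In the Hedgehog pathway, 3 of 10 members were lower in PP and 2 were higher, against 7.37% and 5.36% of all members. The ligand gene IHH went from 63.7 to 4.02 TPM (-3.69) and SHH from 32.6 to 10.1 TPM (-1.59). PTCH1, the receptor gene that is itself a target, went from 40.0 to 9.04 TPM (-2.03), and GLI1, another target, from 4.51 to 0.747 TPM (-1.66). HHIP, a target that encodes a decoy for the ligands, was at 1.14 and 2.05 TPM. SMO, which encodes the protein that Sant1 blocks, was less than 2-fold apart (66.7 and 43.2 TPM). The repressor-type factor gene GLI3 and the co-receptor gene BOC were the 2 higher members of 10, at 3.54 and 18.3 TPM and at 16.6 and 51.6 TPM.

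The PTCH1 promoter is shown for its match to the GLI binding letters GACCACCCA, which appears on the opposite strand in capitals (chr9:95509385-95509484, reverse strand).
PTCH1: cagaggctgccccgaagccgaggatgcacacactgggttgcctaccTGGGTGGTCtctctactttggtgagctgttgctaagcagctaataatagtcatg
The match starts 172 bases before the start site, and these letters were found in 0.229% of all promoters, in 1 of 506 of lower members, which is PTCH1, and in 1 of 360 of higher members, NAA38.

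In the retinoic acid pathway, 5 of 13 members were higher, 3 were lower and 5 were neither. CRABP1 and CRABP2, which encode cytoplasmic binding proteins for retinoic acid, went from 2.77 to 209 TPM (5.80) and from 126 to 563 TPM (2.15). STRA6, which encodes the membrane receptor that takes up retinol, went from 4.86 to 101 TPM (4.13). RDH10, which makes retinaldehyde, was higher as well (4.16 and 11.8 TPM). In the other direction, ALDH1A1, a retinaldehyde dehydrogenase, went from 136 to 30.3 TPM (-2.13), the serum carrier gene RBP4 from 22 to 0.186 TPM (-4.28) and the receptor gene RXRA from 44.8 to 14.1 TPM (-1.60).

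The receptor genes RARA, RARB and RARG had log2 ratios of 0.75, 0.69 and 0.56, each under 2-fold. The degrading enzymes of the CYP26 family stayed under 10 TPM, with CYP26B1 at 0.0465 and 4.84 TPM and CYP26A1 at 0.426 and 1.65 TPM. The RARB promoter (chr3:25428163-25428262, forward strand) is shown because it holds the textbook retinoic acid response element, a direct repeat spaced by 5 bases named DR5, in capitals.
RARB: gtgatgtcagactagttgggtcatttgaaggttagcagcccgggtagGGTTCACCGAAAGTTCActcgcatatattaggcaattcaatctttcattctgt
A DR5 of this form was found in 10 of the 15309 promoters (0.0653%). Members held 3 of these promoters, and 0 of those genes passed 2-fold, RARB itself being at 11.2 TPM in PGT and 18.6 TPM in PP.

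**Figure D3:**
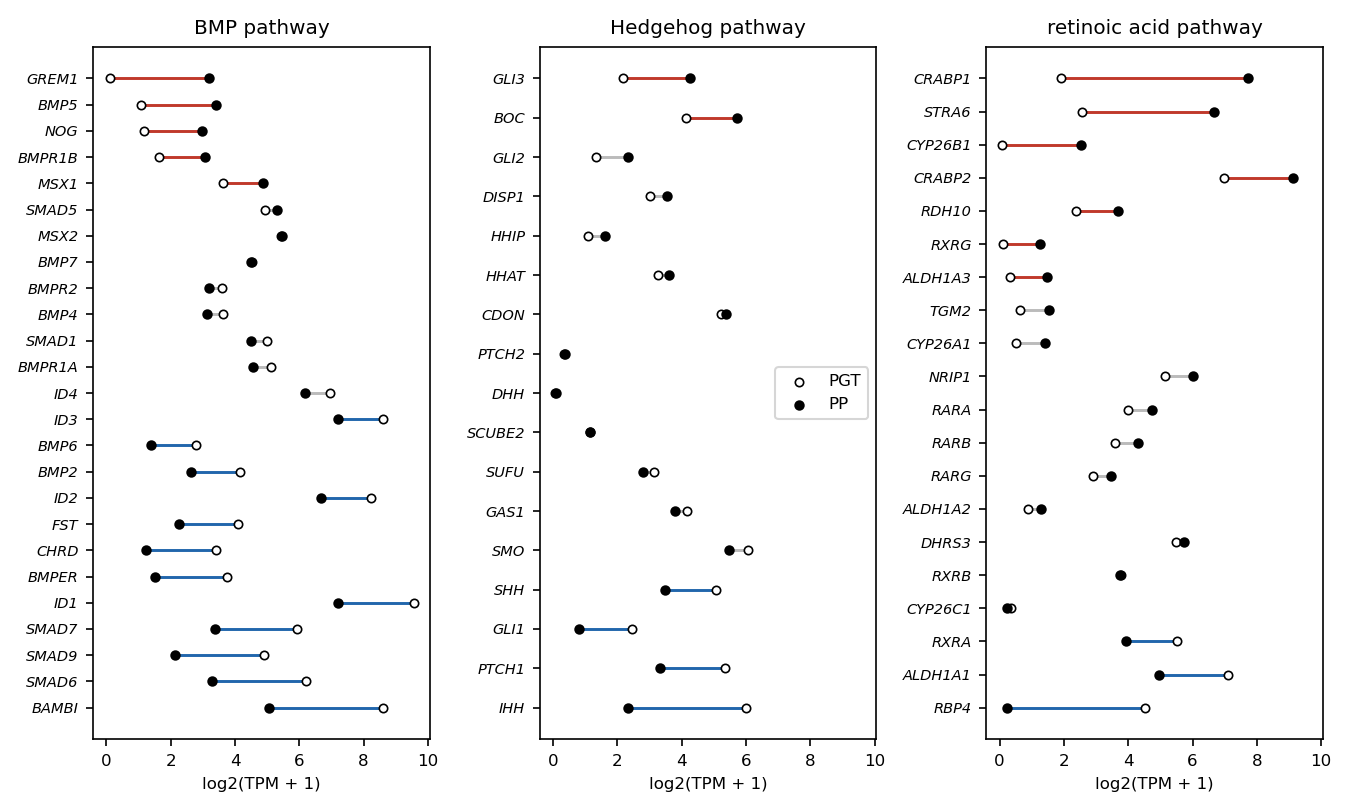
Level of genes of the BMP, Hedgehog and retinoic acid pathways in PGT (open circles) and PP (filled circles), as log2(TPM + 1), ordered by log2 ratio; red lines join genes at least 2-fold higher in PP, blue lines those at least 2-fold lower. BAMBI, SMAD6 and ID1 lie at the lower end of the BMP panel, IHH and PTCH1 at that of the Hedgehog panel, and CRABP1 and STRA6 lead the retinoic acid panel.

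HOX genes, which assign position along the body axis and are ordered along 4 chromosomal clusters by paralog number, were nearly silent in PGT and appeared in PP from the low-numbered end. Of 35 HOX genes described here, 28 were under 0.1 TPM in PGT, and 14 were in PP. All 14 genes of paralog groups 1 to 5 were at least 2-fold higher in PP, with levels from 1.52 to 31.5 TPM and a median of 9.64 TPM. In groups 6 to 8, 3 of 8 were higher, with a median of 0.232 TPM in PP. In groups 9 to 13, 0 of 13 were higher, and the highest level in PP was 0.171 TPM, that of HOXB9.

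The 6 of these at 10 TPM or more reached that level only in PP and were at 4.24 TPM or less in PGT. Their call as higher was therefore fixed by the filter. HOXB3 was the most abundant, at 0.603 TPM in PGT and 31.5 TPM in PP (4.34). HOXA2 went from 0.0164 to 16.6 TPM, HOXA3 from 0.106 to 11.1 TPM and HOXB1 from 0.238 to 12.3 TPM. HOXA5, listed at 0 in PGT, stood at 12.8 TPM. HOXB2 was the exception at the start, since it already had 4.24 TPM in PGT before 20.1 TPM in PP. The clusters differed in how far the expressed stretch reached. HOXB6, HOXB7 and HOXB8 of the B cluster (chromosome 17, 48528526 to 48728750) were at 4.77, 4.15 and 4.39 TPM, whereas HOXA6 and HOXA7 of the A cluster were at 0.283 and 0.134 TPM.

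Noncoding RNAs of the A cluster were higher as well. HOTAIRM1 is listed under several names, and the entry HOTAIRM1 went from 0.0667 to 38.1 TPM (5.20) while HOTAIRM1_5 was listed at 0 in PGT and stood at 89 TPM. HOXA-AS2 went from 0.558 to 32.8 TPM (4.44). Among the TALE partners of HOX proteins, MEIS1 and IRX2 were the 2 higher members of 11 and 0 were lower, although with a pseudocount of 0.1 TPM MEIS3 came to 2-fold lower (33.1 and 16.2 TPM). MEIS2 and PBX2 were at 102 and 66 TPM in PP, with log2 ratios of 0.35 and -0.18.

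**Figure D4:**
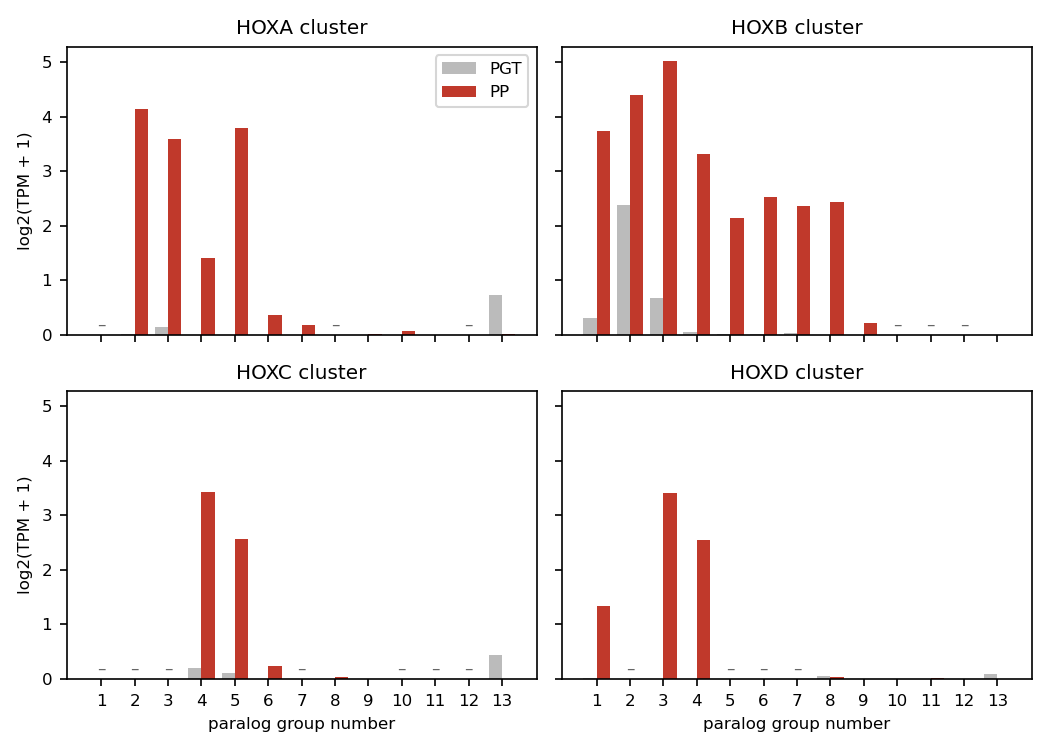
Level of HOX genes in PGT (grey bars) and PP (red bars), as log2(TPM + 1), by paralog group number along each of the 4 clusters; a dash marks a number with no gene analysed here. Red bars stand at groups 1 to 5 wherever a gene is drawn, reach group 8 in the B cluster only, and are close to 0 from group 9 on.

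In the FGF pathway, 5 of 17 members were higher, 4 were lower and 8 were neither. The ligand gene FGF8 went from 1.39 to 25.5 TPM (3.47) and FGF9 from 0.00742 to 17.5 TPM (4.20). The feedback and target genes IL17RD (2.17), ETV4 (1.81) and SPRY1 (1.24) were higher, and DUSP6 and ETV5 were under 2-fold (0.72 and 0.85). The receptor genes FGFR3 (74.4 and 15.2 TPM) and FGFR4 (75.2 and 18.6 TPM) were lower, whereas FGFR2, the receptor of the KGF in the medium, was at 72.6 and 55.6 TPM. FGF10, the mesenchymal ligand that sustains the bud in the embryo, was lower (18.5 and 7.56 TPM), as was FGF13, whose product acts inside the cell (63.5 and 24.1 TPM), so that genes named as ligands stood on both sides.

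The WNT list held 6 higher and 6 lower genes among 20 members. DKK1, a secreted antagonist of the LRP co-receptors, was the lowest of all members relative to PGT, at 429 TPM in PGT and 3.79 TPM in PP (-6.49). FZD4 (125 and 8.22 TPM), the target SP5 (22 and 1.13 TPM) and LGR5 (19.4 and 2.10 TPM) were lower too. The targets AXIN2 (11.2 and 25.9 TPM) and LEF1 (3.17 and 24.5 TPM) were higher, so known targets stood on both sides. Secreted antagonists of the SFRP group were also divided, with SFRP2 and SFRP5 higher (4.60 and 2.18) and SFRP1 lower (-1.32). WNT5A, a ligand of the noncanonical branch, went from 4.72 to 32 TPM (2.53).

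In the Notch list, 8 of 11 members were under 2-fold, 2 were lower and 1 was higher, against 7.37% and 5.36% of all members. The ligand gene JAG1 was higher (7.74 and 49.6 TPM, 2.53), and the ligand gene DLL1 and the glycosyltransferase gene LFNG were lower (21.9 and 8.10 TPM and 37.4 and 3.78 TPM). HES1, the main target in progenitors, was at 68.7 and 44.4 TPM.

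Remaining pluripotency transcripts were lower or under 2-fold, with 4 of 8 members lower and 0 higher. POU5F1 went from 25.4 to 0.543 TPM (-4.10), ZFP42 from 106 to 11.7 TPM (-3.07) and LIN28A, an inhibitor of let-7 maturation, from 516 to 169 TPM (-1.60). LIN28B and DPPA4 stayed at 75.1 and 77.2 TPM in PP. SOX2, which also marks anterior gut and neural tissue, was lowest in PGT among the stages from hESCs to SC-β, at 133 TPM in hESCs, 1.70 TPM in PGT and 68.2 TPM in PP (4.68).

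Factors of other endoderm regions were higher and lower in equal number, 2 of 4 members each. PAX8, a thyroid and kidney factor, went from 0.233 to 40.0 TPM (5.05). HHEX, a factor of the foregut, liver bud and thyroid, was lower (137 and 8.03 TPM, -3.94), as was FOXP1 (182 and 50.0 TPM). The intestinal factor gene CDX2 was at 1.38 and 2.09 TPM, and NKX2-1, the lung and thyroid factor, at 1.60 and 0.292 TPM.

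Exocrine and duct genes were mixed. SPP1, a secreted phosphoprotein of ducts, went from 22.6 to 73.4 TPM (1.66). KRT19, the keratin of ductal epithelium, was lower (1064 and 170.5 TPM, -2.63), and so was KRT7 (27.7 and 6.45 TPM). SPINK1, the trypsin inhibitor of acinar cells, was in no list but had one of the 25 largest ratios, at 1.10 and 84.9 TPM (5.35). The trypsinogen gene PRSS1 was at 8.61 and 4.08 TPM.

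Epithelial genes were mostly under 2-fold, with 14 of 21 members neither, 5 lower and 2 higher. KRT8 went from 869 to 288 TPM (-1.59), while CDH1, which encodes E-cadherin, was at 145 and 92.6 TPM and EPCAM at 348 and 179.9 TPM. VIM, the intermediate filament of mesenchyme and of many progenitors, was the main higher gene (52.3 and 353 TPM, 2.73).

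Markers of nonendodermal cells were examined because the PP mean pools all cells of the spheroids. Of 25 neural markers, 7 reached 10 TPM, of which 4 were higher and 0 were lower. For those far under 10 TPM in PGT, such as ZIC1 and DCX, the filter fixed this call. Over all 25, 13 were higher and 0 were lower, and the summed level was 206 TPM in PGT and 295 TPM in PP. ZIC1 (0.00456 and 17.2 TPM), DCX, the doublecortin of young neurons (3.62 and 12 TPM), and MAP2 (5.97 and 18.8 TPM) were higher, and 11 of the 25 were under 0.1 TPM in PGT against 1 in PP. TUBB3 alone supplied 116 and 76.3 TPM. The neurofilament genes NEFM (0.0890 and 39.4 TPM) and NEFL (0.143 and 28.5 TPM) were among the 25 largest ratios.

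Of 21 mesenchymal markers, 9 reached 10 TPM, with 6 higher and 2 lower (1 lower with median-ratio rescaling). For those far under 10 TPM in PGT, such as COL3A1 and PRRX1, the filter fixed this call. Over all 21, 10 were higher and 3 were lower, and the summed level was 131 TPM in PGT and 254 TPM in PP. COL1A2 went from 15.9 to 114 TPM (2.77), COL3A1 from 0.921 to 14.9 TPM (3.05) and the limb and head mesenchyme factor PRRX1 from 0.268 to 16.4 TPM (3.78). PDGFRA was lower (62 and 11.9 TPM). None of the 14 endothelial and blood markers reached 10 TPM, and their summed level was 8.37 TPM in PGT and 7.25 TPM in PP. PTPRC, the pan-leukocyte gene, and PECAM1 were listed at 0 and 0.0317 TPM in PP. The part of neural or mesenchymal cells in the higher genes was not tested.

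Of 28 cell cycle members, 9 were higher, 0 were lower and 19 were neither, with a median of 0.74 against -0.11 for all members. The higher genes act mainly in mitosis, with CCNB1 at 50.8 and 122 TPM, AURKB at 20.8 and 62.4 TPM, PLK1 at 9.24 and 21.2 TPM and TOP2A at 71.8 and 167 TPM. Replication licensing genes differed little, MCM4 being at 81 and 81 TPM and MCM5 at 81.1 and 91.6 TPM. MKI67 was at 19.5 and 17.3 TPM. CDKN1A, which encodes the cell cycle inhibitor p21, had the largest ratio of the list, at 4.06 and 51.4 TPM (3.37). Kinesins, which include the motors of the spindle, were a family chosen after its values were seen. Of 32 kinesin genes, 10 were higher and 3 were lower, against 5.36% and 7.37% of all members.

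Promoters of mitotic genes often hold the cell cycle genes homology region, the letters TTTGAA, shown in capitals for 3 of the higher genes, on either strand and 5′ to 3′ on the gene's strand. TOP2A holds 2 matches, of which the one nearer the start is in capitals and the other is left in lower case. The capitals begin 151 bases before the TOP2A start, and its printed stretch does not reach that start. In CCNB2 and PLK1 they begin 29 bases before the start. CCNB2 is at chr15:59105046-59105145 (forward strand), PLK1 at chr16:23678789-23678888 (forward strand) and TOP2A at chr17:40417995-40418094 (reverse strand).
CCNB2: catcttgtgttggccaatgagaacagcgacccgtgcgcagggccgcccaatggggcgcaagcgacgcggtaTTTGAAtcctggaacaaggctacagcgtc
PLK1: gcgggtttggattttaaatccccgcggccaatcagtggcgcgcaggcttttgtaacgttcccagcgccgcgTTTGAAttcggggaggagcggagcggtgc
TOP2A: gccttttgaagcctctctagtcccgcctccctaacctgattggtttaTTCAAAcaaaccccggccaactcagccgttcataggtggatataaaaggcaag
These letters were present in 86 of 360 promoters of higher members (23.9%), in 50 of 506 of lower members (9.88%) and in 9.63% of the 7405 promoters of all members. In all 15309 promoters the share was 12.1%. Of the 22 promoters of the cell cycle list, 5 held the letters (22.7%). Higher members that held them also included genes such as SOX2 and VIM. The motif was chosen with these values known, and the shares are a description without a test.

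Genes of cholesterol synthesis and uptake had a median log2 ratio of 0.50, with 21 of 22 members under 2-fold. STARD4 was the higher member (16.6 and 43.9 TPM), with median-ratio rescaling 3 members were higher, and with a pseudocount of 0.1 TPM 1 was lower. Of 21 genes of glycolysis and hypoxia response, 5 were lower, including the glucose transporter gene SLC2A3 (539 and 33.1 TPM, -3.99), SLC2A1 (100.4 and 37.8 TPM) and the growth factor gene VEGFA (114 and 48.2 TPM). LDHA and PDK1, 2 other standard hypoxia targets, were higher (57.7 and 121 TPM and 3.32 and 11.9 TPM), so the list had no common direction. EPAS1, which encodes the hypoxia-inducible factor HIF-2α, was outside the list and among the 25 lowest ratios (102 and 2.75 TPM).

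Stress response genes showed 2 higher and 3 lower among 18 members, against 5.36% and 7.37% of all members. With so few calls and no test, the list is not set apart from these shares. HMOX1, which encodes haem oxygenase, was the lowest (12.5 and 2.06 TPM), the unfolded protein response factor XBP1 was at 129 and 50.4 TPM, and GADD45A and JUN were higher (9.01 and 23.9 TPM and 6.53 and 17 TPM). Genes for chromatin and loop regulators had 0 of 24 members past 2-fold in either direction, although with median-ratio rescaling or a pseudocount of 0.1 TPM ESCO2, a cohesin acetyltransferase gene, passed it (4.80 and 10.3 TPM). CTCF, which anchors chromatin loops, was at 46.3 and 43 TPM, the cohesin subunit gene RAD21 at 85.1 and 101 TPM and SMC3 at 62.8 and 91.4 TPM. CHD4 and ADNP, partners in a complex that competes for CTCF sites, were at 182 and 21.7 TPM in PP.

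**Figure D5:**
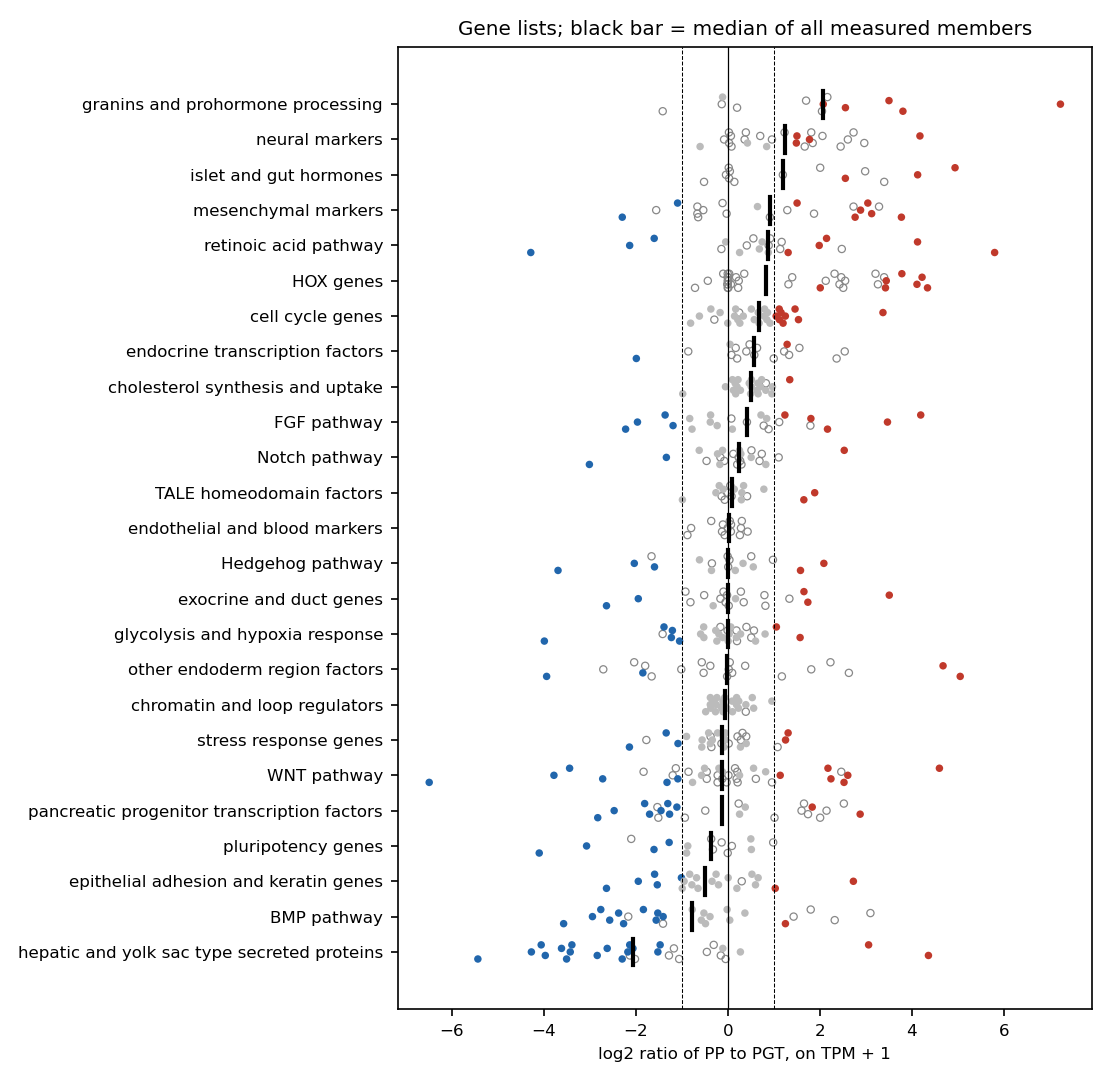
Log2 ratio of PP to PGT for every measured gene of the 25 lists, on TPM + 1; filled points are genes that reach 10 TPM in PGT or PP (red at least 2-fold higher, blue at least 2-fold lower, grey neither), open points are genes below that level, dashed lines mark 2-fold and the black bar is the median over all measured genes of the list. The lowest median, -2.06, belongs to the hepatic and yolk sac type proteins and the highest to granins and prohormone processing, at 2.06.

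Among the 25 largest ratios in each direction, most genes lay outside the lists. In PP, SEMA3C, a secreted guidance cue, was at 113 TPM against 0.205 TPM in PGT (6.56), the zinc finger repressor gene ZEB2 at 65.3 against 0.239 TPM (5.74), the secreted glycoprotein gene NELL1 at 49.7 against 0.0357 TPM (5.61) and the integrin gene ITGA4 at 31.9 against 0.0935 TPM (4.91). CALB1, a calcium buffer, GFRA1, a receptor for GDNF, and S100A3 had log2 ratios of 4.76, 4.40 and 5.62. S100B, FABP9 and the U1 RNA variant RNVU1-14 were listed at 0 in PGT and stood at 28.7, 23.3 and 42.5 TPM. RNVU1-14 has near-identical copies elsewhere in the genome, and its reads may be shared with them.

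Of the 25 lowest ratios, 5 belonged to transcripts known only by clone names. GABRP, a GABA receptor subunit gene, went from 129.5 to 1.72 TPM (-5.58), APELA, which encodes a peptide ligand of the apelin receptor, from 207 to 3.62 TPM (-5.49), the neuropeptide gene NPY from 290.0 to 8.81 TPM (-4.89) and IGFBP3, a binding protein of insulin-like growth factors, from 304 to 11 TPM (-4.66). HAND1, a factor of heart and extraembryonic mesoderm, was at 50.4 and 0.217 TPM. CST1, GSTA2, TRIML2, DGKB, MUSTN1, SYTL5, SPNS2 and SNORD118 had log2 ratios between -5.44 and -4.05.

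In relation to the other stages, 213 of the 544 higher genes had their highest mean in PP, 224 in SC-β, 83 in hESCs and 24 in DE. Of the 747 lower genes, 458 were highest in PGT, 174 in DE, 60 in SC-β and 55 in hESCs. PGT cannot be the highest stage of a higher gene, nor PP of a lower one, since the 2-fold rule fixes this. SST and CHGA belong to the genes that were higher again in SC-β, at 203 and 805 TPM, and TTR, after its drop to 55.8 TPM in PP, stood at 1229 TPM there. S100A3 (0.986 TPM in SC-β) and CALB1 (3.68 TPM) were below their PP level.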

How the data were processed

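RNA-seq means of PGT and PP were compared, with 2 samples behind each. The authors aligned reads to hg38 with HISAT2 (version 2.2.0), estimated TPM per gene with StringTie (version 2.1.6) and deposited the mean TPM of each stage. The methods name RiboMinus and the labels name a TruSeq mRNA kit, so the RNA selection is not settled here. The annotation behind the gene names is not given in the sources used here. Single replicates, read counts and depth per sample are not part of the table, so no spread, interval or test could be computed, and the number of columns of other samples was 0. The PH stage, which the paper does not define, was not used.

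From the table, entries sharing a name were summed (231 names had more than 1), and log2((TPM + 1) / (TPM + 1)) of PP to PGT was computed. Genes at 10 TPM or more in either stage were kept, and 2-fold was the threshold. The members and the 25 gene lists were chosen with earlier results of these data known. Named genes were PDX1, CHGA and MEIS1, list members past 2-fold or under 10 TPM where they define the stage or respond to an agent of the medium, the 25 largest ratios in each direction (clone names counted only) and genes at the 10 TPM limit. Other list members are named for contrast, and genes outside this rule were chosen after their values were seen. WAPL is listed as WAPAL. Some members of the lists are counted with their list but not reported singly here, and 1 HOX gene was left out of the HOX counts.

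Of the 10140 members, 9757 matched a gene of GENCODE version 44 (GRCh38, the same build as hg38), 522 of them through a RefSeq synonym. Promoters, 250 bases before and 50 after each start, came from RefSeq (GRCh38.p14). Motifs were searched on both strands as TGACGTCA, GACCACCCA, TTTGAA and DR5, chosen with the values known. The matches to TGACGTCA may overlap other motifs. The ratio and the call were run on simulated data with changes far beyond 2-fold, little noise and only genes at 10 TPM or more in PGT. This checks the code and not the calls made on these data. The alternatives were a pseudocount of 0.1 TPM, median-ratio rescaling, totals without structural and mitochondrial RNAs, a limit of 20 TPM or none, the highest entry of a name, and 4-fold. Python 3.11.15, numpy 2.4.6, pandas 2.3.3 and matplotlib 3.10.9 were used.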

Additional observations from a re-analysis of the deposited data

How the results depend on the processing

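The count of genes higher in PP, 544, became 936 without structural and mitochondrial RNAs, where 12254 genes instead of 10140 reached 10 TPM. It became 315 at 20 TPM or more, 1346 with no limit on TPM and 195 at 4-fold. The count of lower genes, 747, became 1594 with no limit and 231 at 4-fold. With median-ratio rescaling 642 genes were higher and 605 were lower, and with a pseudocount of 0.1 TPM 584 and 808. Keeping the highest entry of a name left 544 and 747. The median PP to PGT ratio over 17522 genes at 1 TPM or more in both was -0.11 on the log2 scale. Of 176 named genes, 171 kept their side of 2-fold with median-ratio rescaling, and BNIP3, CDH2, COL5A1, HSPA5 and LGR4 came under it (-0.94, -0.90, -0.99, -0.97 and -0.98). All 176 kept it with a pseudocount of 0.1 TPM, and none changed direction under either. Both outcomes were fixed in advance and say nothing on robustness. The named genes were already past 2-fold, and a smaller pseudocount can only move a ratio away from 0. The rescaling shift is too small to reverse such a ratio. Under these alternatives, 93 of 100 list counts stayed within 1.5 times of their value. The causes were not tested. No paired analysis was possible because only stage means are held, and likewise no replicate could be left out. Values below 1 TPM have no known precision.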

Other observations

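Genes of the neural crest and its glia were examined as a further group, written down after some of their values had been seen. Of 20 such genes, 12 reached 10 TPM, and 9 of these were higher in PP and 0 were lower. For those far under 10 TPM in PGT, such as NGFR and PAX3, the filter fixed this call. Of the 8 below that level, 7 were higher. The defining crest factor SOX10 was listed at 0 in PGT and stood at 8.69 TPM in PP, and FOXD3 went from 0.00786 to 9.72 TPM. The neurotrophin receptor gene NGFR (0.226 and 49.7 TPM) and the crest factors PAX3 (1.58 and 30.9 TPM) and TFAP2B (3.83 and 37 TPM) were higher too. In SC-β, SOX10 was at 0.649 TPM and FOXD3 at 0.353 TPM, both below PP, whereas PAX3 was at 72.6 TPM and ZEB2 at 103 TPM. Of this list, ZEB2, ERBB3, SOX5 and TFAP2A are not particular to crest cells, and 3 genes are shared with the neural or mesenchymal lists. The part of such cells in the other results was not tested.

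Matrix genes differed in both directions, in a group also chosen after values had been seen. Of 20 members, 7 were lower and 3 were higher. FN1, which encodes fibronectin, was among the most abundant messenger RNAs of PGT and went from 7276 to 1232 TPM (-2.56). The basement membrane collagen genes COL4A5 (501 and 147 TPM) and COL4A6 (478 and 65.7 TPM), which share a promoter region, and LAMB1 (516 and 178 TPM) were lower, while COL4A2 was at 82.4 and 77.7 TPM. The fibrillar collagen genes COL5A2 (7.60 and 142 TPM) and COL2A1 (92.9 and 364 TPM) and the tenascin gene TNC (42.7 and 196 TPM) were higher. Of 24 collagen genes in all, 8 were higher and 10 were lower.

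Imprinted genes were a further group chosen after values had been seen. Of 12 at 10 TPM or more, 4 were higher and 0 were lower. Their median was -0.11, as it was for all members. Over all 18 genes, 5 were higher and 1 was lower, MEG3 (4.12 and 1.29 TPM). The neighbouring pair H19 and IGF2, which share enhancers, went from 63.4 to 789.7 TPM (3.62) and from 2.73 to 21.2 TPM (2.57). IGF2 reached 10 TPM only in PP, so the filter fixed its call. MEST was at 83.6 and 307 TPM and NNAT at 38.1 and 105 TPM. CDKN1C, GRB10 and DLK1 were under 2-fold, with log2 ratios of -0.81, -0.78 and -0.98.

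The histone and zinc finger families were also chosen after values had been seen. Of 59 replication-dependent histone genes, 34 were higher and 1 was lower, with a median of 1.10. The densest stretch of higher protein-coding members within 1 Mb lay in the histone cluster on chromosome 6 (27125897 to 27893891 on GRCh38), with 14 of 21. HIST1H2AM was the lower gene (515 and 46.6 TPM), and it overlaps HIST1H3J (237 and 1304 TPM), so their reads were not told apart here. Histone genes have near-identical copies and mostly lack poly(A) tails, and the sources name both a poly(A) kit and ribosomal RNA removal. The ZNF-named zinc finger genes on chromosome 19 included 17 lower and 0 higher among 134 members, with a median of -0.43, against 1 lower and 3 higher among 150 on the other chromosomes, with a median of -0.15. The densest stretch of lower protein-coding members (chromosome 19, 52702813 to 53496255) held 7 lower genes of 15, all of them ZNF genes, such as ZNF761 (127 and 31.3 TPM), ZNF765 (62.6 and 15.2 TPM) and ZNF611 (67 and 16.7 TPM).

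The 82 ribosomal protein genes were all under 2-fold with a median of -0.40, which was -0.29 with median-ratio rescaling. By annotation, 499 of 9270 protein-coding members were higher (5.38%) and 648 were lower (6.99%). These shares were close to those of all members, 5.36% and 7.37%. Of 126 long noncoding RNAs, 17 were higher (13.5%) and 15 were lower (11.9%). Among the 383 members without a match in GENCODE version 44, 21 were higher (5.48%) and 50 were lower (13.1%).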
